A study of Homo sapiens with 3 samples.

Results

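The mitosis and spindle genes are a set of 45 genes whose products act between mitotic entry and cytokinesis. They were chosen by gene symbol, with earlier results of these data known, from the 18836 genes listed in at least 1 of 3 mRNA-seq libraries, and all 45 were listed in all 3. Each library started from 10 pg of polyA+ mRNA diluted from bulk mRNA. LIEA, in which fragmented mRNA is made into an Ion Torrent library without amplification of whole cDNA beforehand, was applied to the HBE and A549 cell lines. HBE is a human bronchial epithelial line, and A549 is a lung adenocarcinoma line that the labels call alveolar basal epithelial. Smart-seq2, in which cDNA primed from the polyA tail is amplified before library construction, was applied to HBE and sequenced on an Illumina instrument. No library carried a treatment or an engineered allele according to the labels. How HBE was immortalised, and the density, passage and number of cultures behind each mRNA, are not given in the sources used here. There was 1 library per condition, so no difference below has a replicate check and no p-value is given.

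The values are log2 rpkM, the base 2 logarithm of mapped reads per kilobase of transcript scaled to the total of the library, so levels of different genes are compared per length. The numbers of mapped reads worked out from the values were 4605855 for HBE by LIEA, 4154060 for A549 by LIEA and 9845150 for Smart-seq2 of HBE. Reads per gene were worked out in the same way, and ranges given as 95% counting intervals rest on these reads and cover counting error only, since PCR copies are not independent molecules. The median log2 difference, A549 minus HBE, of the 5823 genes with at least 100 reads in both LIEA libraries was -0.16, and the differences of single genes are to be read beside this shift. The labels were checked against marker genes. KRT5, a keratin of airway basal cells, stood at a log2 rpkM of 9.11 in HBE by LIEA, 8.67 in Smart-seq2 of HBE and 0.91 in A549. NGFR and KRT14, other basal cell markers, were not listed in A549, whereas the simple epithelial keratin KRT8 had a log2 rpkM of 11.95 there against 8.98 in HBE by LIEA. The other epithelial markers differed in direction, with KRT18 higher in A549 by 2.53 on the log2 scale and EPCAM (226 reads in HBE by LIEA and 26 in A549), CDH1 and KRT19 at differences of -2.97, -1.56 and -0.46. Of the alveolar type 2 markers, SFTPC and SFTPA1 were listed in no library, SFTPB had 20 reads in A549 and 21 in HBE by LIEA, NKX2-1 was not listed in A549 and NAPSA had 7 reads there and was not listed in HBE. ABCA3, a lipid transporter of type 2 cells, had 382 reads in A549 and 73 in HBE by LIEA, a difference of 2.54 (2.17 to 2.92). It made up most of the 409 summed reads of these markers in A549, against 95 in HBE by LIEA and 75 in Smart-seq2. Summed reads are not scaled to the library total. The summed rpkM of these markers was 16.4 in A549, 3.7 in HBE by LIEA and 1.9 in Smart-seq2. The summed reads of 7 markers of other cell types were 553 in HBE by LIEA, 178 in A549 and 871 in Smart-seq2. Smart-seq2 had the most mapped reads, and as summed rpkM it lay below HBE by LIEA. The summed rpkM was 53.6 in HBE by LIEA, 22.9 in A549 and 48.2 in Smart-seq2. Most of the gap in reads between HBE by LIEA and A549 came from the endothelial cadherin CDH5. It had 206 reads in HBE by LIEA and was not listed in A549. The leukocyte marker PTPRC had at most 3 reads in any library. The part of other cell types in the results was not tested. Below, 3 values given in a row follow the order HBE by LIEA, A549 by LIEA, HBE by Smart-seq2.

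In a dividing cell, cyclin B bound to CDK1 starts mitosis once CDC25 phosphatases have removed the inhibitory phosphates from the kinase. Condensin and topoisomerase II shape the chromosomes, kinesins and microtubule-binding proteins build the spindle, and the spindle assembly checkpoint holds back CDC20 until every kinetochore is attached. The anaphase-promoting complex then marks securin and cyclin B for destruction, separase cuts cohesin, and the contractile ring divides the cell. Many of these genes are transcribed in G2 phase and mitosis under FOXM1 and the MYBL2-MuvB complex, and their mRNAs are often read as a sign of proliferation. In RNA from a population of cells, fewer cells in mitosis and less of an mRNA per cell cannot be told apart.

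All 45 genes were quantified in all 3 libraries, with at least 10 mapped reads, and all were above 1 rpkM. Their reads ran from 55 to 3117 in HBE by LIEA, from 46 to 1629 in A549 and from 58 to 5355 in Smart-seq2. The median log2 rpkM of the 45 genes was 4.74 in HBE by LIEA, 4.0 in A549 and 4.84 in Smart-seq2. Ranked among the quantified genes of its own library, the median member stood at percentile 76.5 in HBE by LIEA, 66.9 in A549 and 78.2 in Smart-seq2. The group therefore lay in the upper part of the expressed genes in each library, and lower in that order in A549. Together the 45 genes took 0.566% of the mapped reads in HBE by LIEA (95% exact binomial interval 0.560 to 0.573), 0.403% in A549 (0.397 to 0.409) and 0.513% in Smart-seq2 (0.509 to 0.518). In HBE by LIEA the highest levels were those of CDC20, PLK1 and FOXM1, with log2 rpkM of 6.95, 6.88 and 6.25. In A549 they were those of CDC25B, PLK1 and UBE2C, at 6.69, 6.18 and 5.83. The kinetochore motor CENPE was the lowest member in both LIEA libraries, at 2.04 in HBE and 0.42 in A549.

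**Figure D1:**
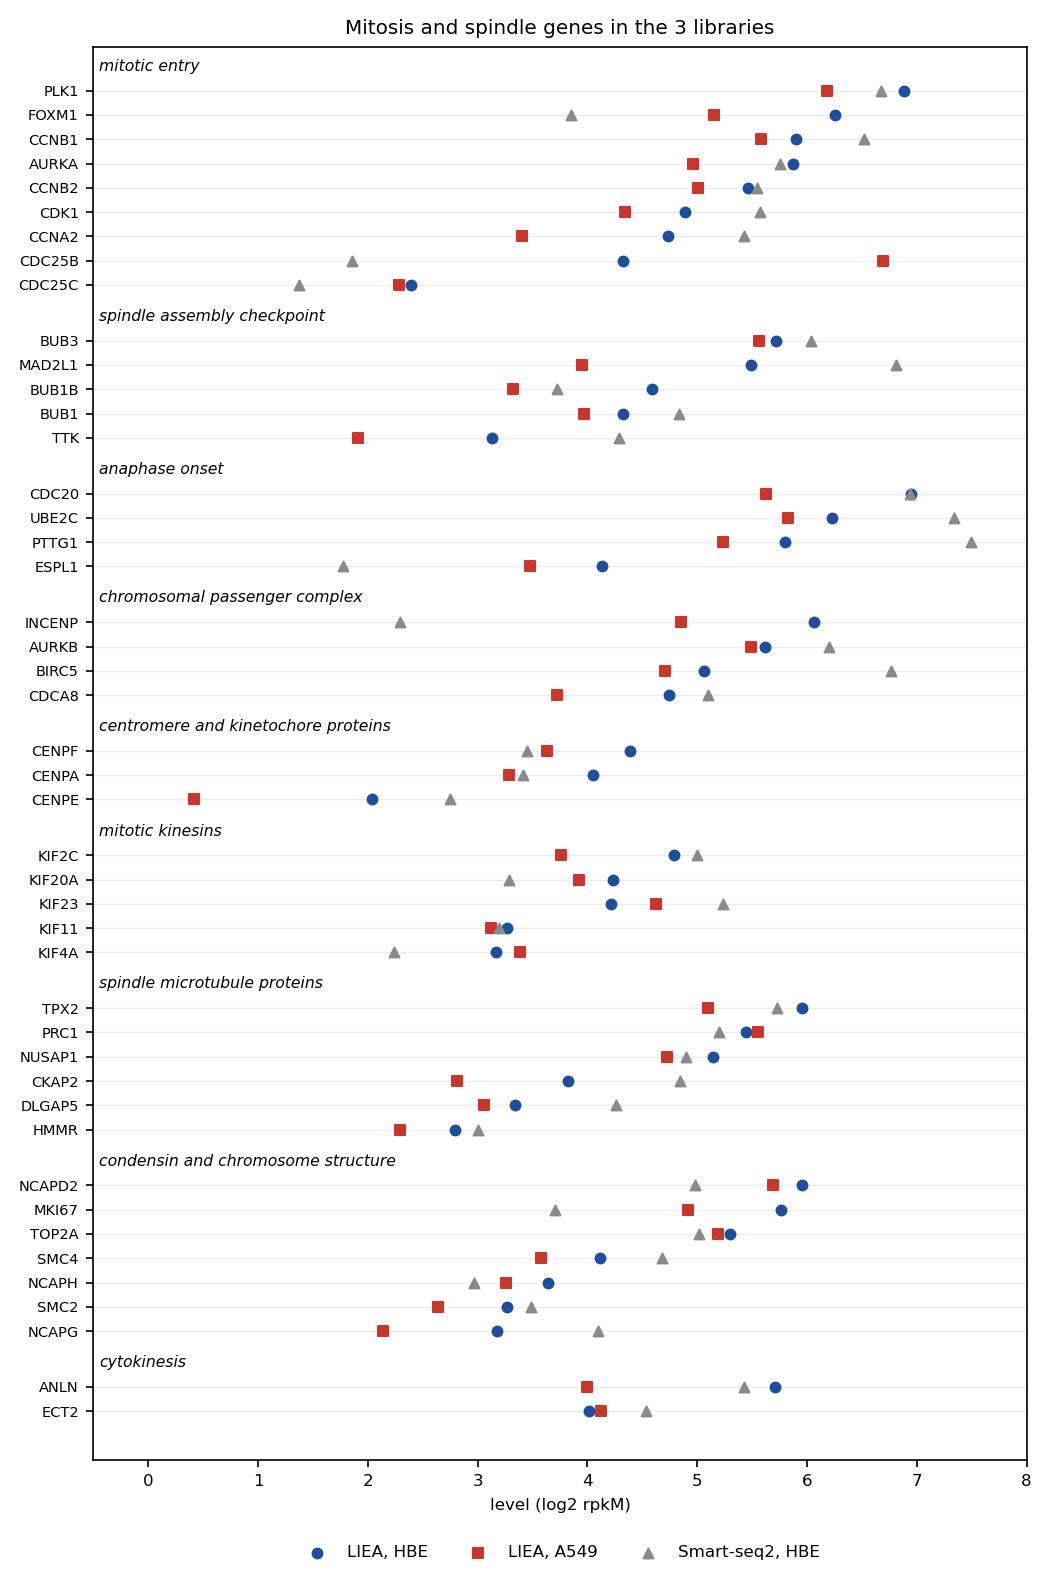
Level of each of the 45 genes (log2 rpkM, horizontal axis) in HBE by LIEA (circles), A549 by LIEA (squares) and Smart-seq2 of HBE (triangles), grouped by role and ordered by HBE by LIEA, with 1 library per symbol and no error bars. The squares lie to the left of the circles for 40 genes, and CDC25B is the member whose square lies furthest to the right of its circle.

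Between the cell lines, measured by LIEA, most mitosis and spindle genes were lower in A549 than in HBE. The difference A549 minus HBE was below 0 for 40 of 45 genes (88.9%), where 54.8% of all 13631 genes with at least 10 reads in either LIEA library were below 0. The median log2 difference was -0.55, a level 1.47-fold lower in A549, with quartiles of -1.03 and -0.28, and the median of all genes was -0.13. At least 2-fold lower were 13 genes (28.9%) against 20.9% of all genes, and at least 2-fold higher was 1 gene, CDC25B (2.22%), against 20.4% of all genes. At least 1.5-fold lower were 21 genes (46.7%) against 33.7% of all genes. At least 2-fold apart in either direction were thus 14 genes, or 31.1%, where all genes gave 41.3%. The counting interval lay wholly below equality for 35 genes (77.8%) against 39.2% of all genes, and wholly above it for 2, CDC25B and KIF23 (4.44%), against 31.5% of all genes. Whether an interval excludes equality depends on the number of reads. The members had a median of 340 reads in HBE by LIEA and 241 in A549, while all genes needed only 10 reads in 1 library. No share at matched reads was worked out. Most members thus differed by a moderate amount in 1 direction, and no member was lower by more than 1.71 on the log2 scale. The smaller share of members at least 2-fold apart than of all genes is not matched for reads either. All 45 members were listed in both LIEA libraries, whereas 12953 of the 13631 genes were. The scale decides the direction of the smallest differences. Centred on the shift of -0.16, 35 members were lower, against 48.8% of all genes, and AURKB, BUB3, KIF11, TOP2A and CDC25C lay at or above 0. On that scale 8 members were at least 2-fold lower, against 17.3% of all genes, so the share of members past this fold was near that of all genes while the share lower at any size was not. Rescaled to TPM, 42 were lower against 60.4% of all genes, 15 were at least 2-fold lower against 25.5% of all genes, and PRC1 and ECT2 turned to lower. CDC25B was the only member at least 2-fold higher on all 3 scales.

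**Figure D2:**
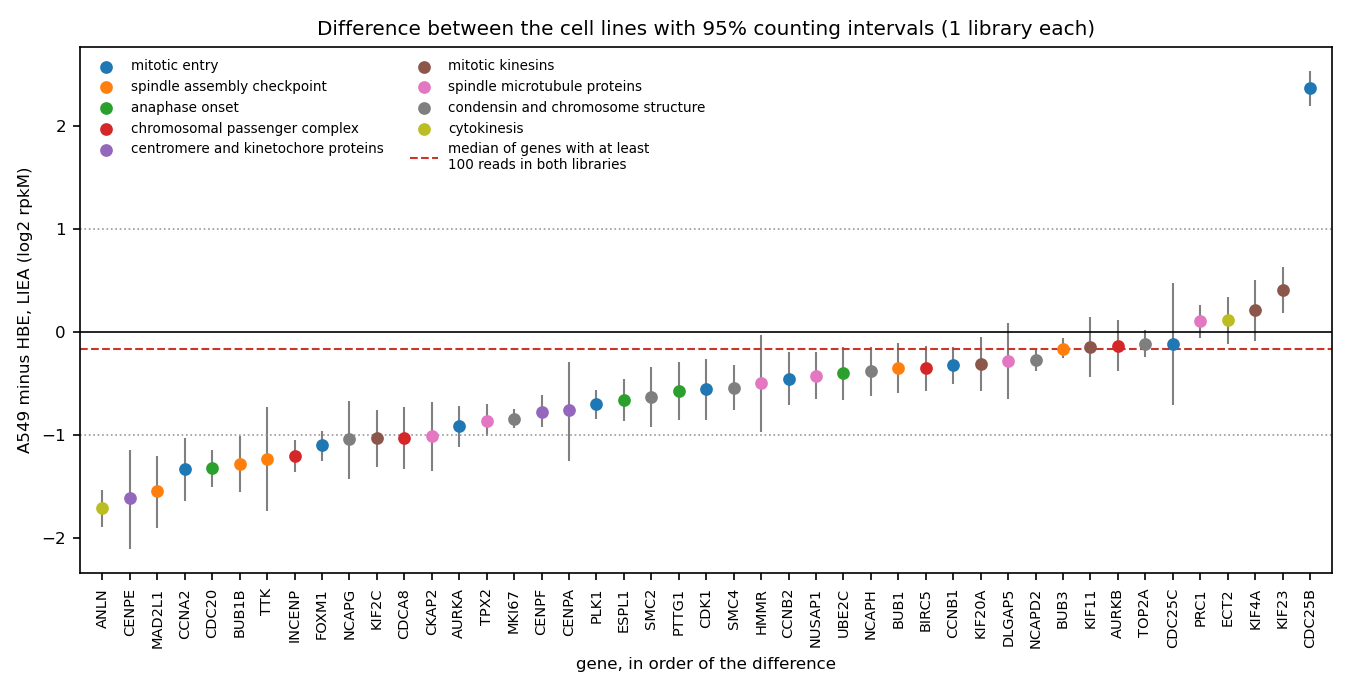
Log2 difference in rpkM, A549 minus HBE, both by LIEA (vertical axis), for the 45 genes in order of the difference, with colours for the roles. Bars are 95% counting intervals for 1 library each, dotted lines mark a fold of 2, and the dashed line marks the median of -0.16 of genes with at least 100 reads in both. The 13 genes from ANLN to CKAP2 lie at or beyond the lower dotted line, and CDC25B stands alone at 2.37.

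**Figure D3:**
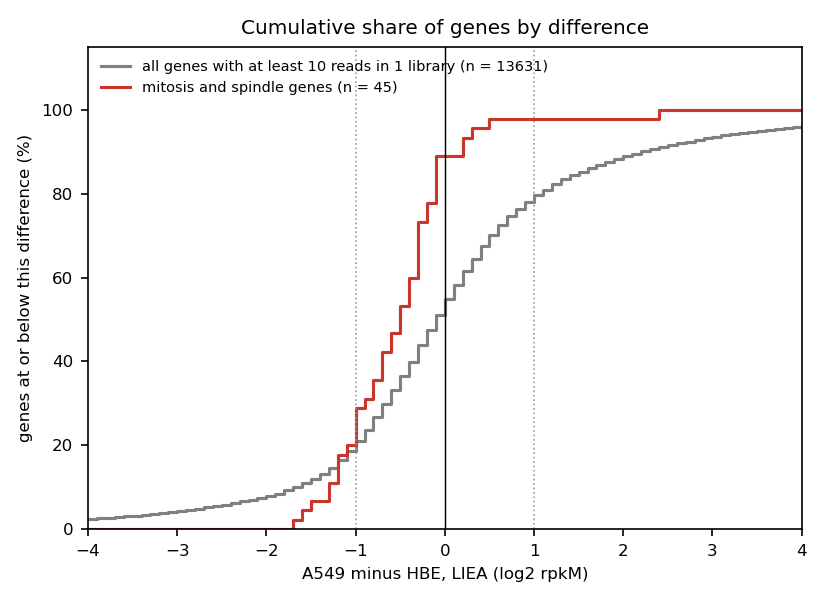
Share of genes (vertical axis, %) at or below each log2 difference in rpkM, A549 minus HBE by LIEA (horizontal axis), for the 45 mitosis and spindle genes and for all 13631 genes with at least 10 reads in either library. At 0 the curve of the 45 genes has reached 88.9% and that of all genes 54.8%, and the 45 genes have neither the long lower nor the long upper tail of all genes.

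The counts of the single roles below rest on few genes and are to be read beside the shares of all genes within LIEA. Of all genes, 54.8% were lower, 20.9% at least 2-fold lower, and 39.2% had an interval wholly below equality. Of the 9 genes of mitotic entry, 8 were lower in A549, with a median log2 difference of -0.55. At least 2-fold lower were 2 of the 9, a share near that of all genes. CCNA2 encodes cyclin A2, which activates CDK2 and CDK1 in S and G2 phase, and its log2 rpkM was 4.73 in HBE by LIEA, 3.40 in A549 and 5.43 in Smart-seq2 of HBE. It had 342, 123 and 1185 reads in these libraries, and A549 was the lowest of the 3. The difference between the cell lines was -1.33 (95% counting interval -1.64 to -1.03), the lowest of the entry genes. FOXM1, a transcription factor that drives G2 and mitotic genes, had a log2 rpkM of 6.25 in HBE by LIEA and 5.15 in A549, a difference of -1.10 (-1.25 to -0.96). Its level in Smart-seq2 was 3.85, so A549 lay between the HBE libraries for this gene. PLK1, the kinase that promotes entry and spindle maturation, had 1176, 652 and 2176 reads and levels of 6.88, 6.18 and 6.67. AURKA, the spindle pole kinase, stood just outside the 2-fold limit with levels of 5.87, 4.96 and 5.75 and a difference of -0.91. The mitotic cyclins differed less than cyclin A2: CCNB1 had levels of 5.90, 5.58 and 6.52 and a difference of -0.32, and CCNB2 had 5.46, 5.01 and 5.54 and -0.45. Their partner CDK1 had levels of 4.89, 4.34 and 5.57 and a difference of -0.55.

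The CDC25 phosphatases, which activate CDK1, differed from each other. CDC25B had 340 reads in HBE by LIEA, 1581 in A549 and 132 in Smart-seq2 of HBE, at log2 rpkM of 4.32, 6.69 and 1.86. Its level in A549 was 5.16-fold that in HBE by LIEA, a log2 difference of 2.37 (2.20 to 2.54), and it was the highest of all 45 genes in A549. The difference between the HBE libraries was as large, at 2.46 for LIEA minus Smart-seq2, but A549 lay above both of them. CDC25C was the most sparsely covered member, with 55, 46 and 58 reads, and its levels of 2.39 in HBE by LIEA and 2.28 in A549 differed by -0.11 with an interval from -0.71 to 0.48 that spans 0. CDC25A, the family member of the G1 to S transition, is not among the 45 genes. It had 262 reads in HBE by LIEA and 33 in A549, and its difference of -2.84 was the lowest of the 130 other mitotic and entry genes with at least 10 reads.

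All 5 genes of the spindle assembly checkpoint were lower in A549 by LIEA, all with counting intervals below 0, and 3 at least 2-fold. Their median log2 difference was -1.23, the lowest median among the 9 roles within LIEA. Against Smart-seq2 of HBE all 5 were lower too, 2 of them at least 2-fold. The median was then -0.86, and anaphase onset had the lowest median of the roles, -1.41. MAD2L1 encodes MAD2, the protein that captures CDC20. It had 297 reads in HBE by LIEA, 92 in A549 and 1585 in Smart-seq2, at log2 rpkM of 5.49, 3.95 and 6.81, so A549 was below both HBE libraries. The difference between the cell lines was -1.54 (-1.90 to -1.20). BUB1B, which encodes the checkpoint protein BUBR1, had levels of 4.59, 3.32 and 3.72 and a difference of -1.28. TTK, the kinase MPS1 at the head of the checkpoint, had only 47 reads in A549 against 122 in HBE by LIEA, and its levels were 3.13, 1.91 and 4.29. Its difference of -1.23 has a wide interval, from -1.74 to -0.73. BUB3, the adaptor that holds BUB1 and BUBR1 at kinetochores, was the most read of the 5 and differed least, with levels of 5.72, 5.56 and 6.04 and a difference of -0.16, equal to the shift of all well covered genes. The kinase BUB1 had levels of 4.32, 3.97 and 4.83 and a difference of -0.35.

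The 4 genes of anaphase onset were all lower, with a median of -0.61. CDC20, the activator of the anaphase-promoting complex, was the highest of the 45 genes in HBE by LIEA and was nearly level between the methods, with 953, 344 and 2028 reads and log2 rpkM of 6.95, 5.63 and 6.94. A549 thus stood apart from 2 HBE libraries that lay 0.01 from each other, and the difference between the cell lines was -1.32 (-1.50 to -1.14), a level 2.50-fold lower. UBE2C, the ubiquitin-conjugating enzyme of the same complex, was the least different, with levels of 6.23, 5.83 and 7.34 and a difference of -0.40. PTTG1 encodes securin, the inhibitor of separase, and had levels of 5.80, 5.23 and 7.49. ESPL1 encodes separase itself, and its levels were 4.13, 3.48 and 1.77. Securin was the highest of the 45 genes in Smart-seq2 while separase was the second lowest there, and in HBE by LIEA they lay much closer. Reads of PTTG1 could in principle be shared with its retrocopies. PTTG2 was listed only in Smart-seq2, at a log2 rpkM of -0.92, and PTTG3P only in HBE by LIEA, at -1.49.

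In the chromosomal passenger complex, which corrects wrong attachments and later marks the cell's midzone, all 4 genes were lower and 2 at least 2-fold. INCENP, the scaffold, had 1271 reads in HBE by LIEA, 498 in A549 and 199 in Smart-seq2, at log2 rpkM of 6.06, 4.85 and 2.29. Its difference between the cell lines was -1.20, but its difference between the methods was 3.77, the largest of the 45 genes, and A549 lay above Smart-seq2 of HBE. CDCA8, which encodes borealin, had levels of 4.74, 3.72 and 5.10 and a difference of -1.03. AURKB, the kinase of the complex, had levels of 5.62, 5.49 and 6.20 and a difference of -0.13 with an interval from -0.38 to 0.12. The number of reads of AURKB, 294 in HBE by LIEA, rests on a whole factor of 2 chosen from annotated lengths, and that of BUB3 on a factor of 3, which leave their levels and differences as they are. BIRC5, which encodes survivin, had levels of 5.06, 4.71 and 6.76 and a difference of -0.35. The kinase and its 3 partners thus did not differ by the same amount between the cell lines. At the centromere, CENPE, a motor that moves chromosomes to the spindle equator, had 163, 48 and 571 reads and levels of 2.04, 0.42 and 2.75. It was below both HBE libraries in A549, with a difference of -1.61 (-2.11 to -1.14) by LIEA, a level 3.06-fold lower. CENPF, a large kinetochore protein of G2 and mitosis, had levels of 4.39, 3.63 and 3.45. CENPA, the histone H3 variant of centromeres, had 4.05, 3.29 and 3.41 and a difference of -0.76 on 109 and 58 reads.

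The mitotic kinesins were the role with the smallest median difference, -0.14. Of the 5 genes, 3 were lower and 2 higher in A549, and the interval was wholly below 0 for 2 and wholly above it for 1. KIF2C, the kinesin MCAK that takes microtubules apart at centromeres, had 367, 162 and 910 reads and log2 rpkM of 4.79, 3.76 and 5.0, a difference of -1.03 between the cell lines. KIF23, a subunit of the centralspindlin complex of the midzone, had levels of 4.21, 4.62 and 5.23. Its difference of 0.41 (0.19 to 0.63) was above 0 by LIEA, while A549 lay below HBE by Smart-seq2. KIF4A, a chromokinesin, had levels of 3.17, 3.39 and 2.24, and its difference of 0.22 has an interval from -0.08 to 0.51. Its near-identical copy KIF4B was listed at -0.54, -0.20 and 0.20, far below KIF4A. KIF11, the motor that pushes the spindle poles apart, was nearly level at 3.27, 3.12 and 3.19. KIF20A, a kinesin of the midzone, had 4.23, 3.92 and 3.29.

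Of the 6 spindle microtubule proteins, 5 were lower, 1 of them at least 2-fold, with a median of -0.46. CKAP2 stabilises spindle microtubules. It had 244, 109 and 1052 reads and log2 rpkM of 3.82, 2.81 and 4.84, and with a difference of -1.01 it was the member just inside the 2-fold limit. TPX2, which activates AURKA on the spindle, was the most read of the 6 in HBE by LIEA, with 1043, 520 and 1913 reads, levels of 5.95, 5.10 and 5.73, and a difference just outside the limit at -0.86. PRC1, which bundles antiparallel microtubules between the separating chromosomes, had levels of 5.44, 5.55 and 5.20 and a difference of 0.11 (-0.06 to 0.27). NUSAP1, HMMR and DLGAP5 differed by -0.42, -0.49 and -0.28. PRC1, KIF4A and KIF23, with the cytokinesis regulator ECT2, all work at the spindle midzone, and together with CDC25B they were the 5 members that were not lower in A549. This grouping was seen after the values were known, and KIF20A and the passenger complex, which work there too, were lower.

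The 7 genes of condensin and chromosome structure were all lower by LIEA, with a median of -0.54, and 6 intervals lay below 0. Against Smart-seq2 of HBE the direction was mixed, with a median of 0.17. There 3 genes were lower in A549, while TOP2A, NCAPD2, NCAPH and MKI67 were higher. NCAPG, a non-SMC subunit of condensin I, was at least 2-fold lower, with 199, 87 and 800 reads, log2 rpkM of 3.18, 2.14 and 4.10 and a difference of -1.04. The other 2 condensin I subunits among the members differed less, NCAPD2 by -0.27 and NCAPH by -0.38. The core ATPases SMC2 and SMC4 differed by -0.63 and -0.54. MKI67 encodes Ki-67, the coat protein of mitotic chromosomes that is widely stained to count proliferating cells. It had the most reads of the 45 genes in HBE by LIEA, 3117, against 1571 in A549 and 1600 in Smart-seq2. Its levels were 5.76, 4.92 and 3.70, and its difference of -0.84 (-0.93 to -0.75) was among the most precisely counted. TOP2A, topoisomerase II alpha, had levels of 5.30, 5.19 and 5.02, and its difference of -0.11 has an interval from -0.24 to 0.02. These proliferation markers thus gave different sizes of difference between the same cell lines. In cytokinesis the members lay at opposite ends. ANLN, anillin of the contractile ring, had 1156 reads in HBE by LIEA, 319 in A549 and 2037 in Smart-seq2, at levels of 5.71, 4.0 and 5.43. Its difference of -1.71 (-1.89 to -1.53), a level 3.27-fold lower, was the lowest of all 45 genes, and A549 was well below 2 HBE libraries that lay 0.28 apart. ECT2, the exchange factor that activates RhoA at the midzone, had 326, 319 and 1003 reads and levels of 4.01, 4.12 and 4.53, with a difference of 0.12 (-0.11 to 0.34).

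HBE mRNA measured by both methods gives the size of difference seen with no change of cell line. The median log2 difference, LIEA minus Smart-seq2, was -0.09 over the 45 genes and 0.04 over all genes, and the median of the 6655 genes with at least 100 reads in both HBE libraries was 0.11. Single members lay much further apart. At least 2-fold apart were 13 of 45 genes (28.9%), against 50.6% of all 13534 genes with at least 10 reads in either HBE library, with 6 higher by LIEA (28.4% of all genes) and 7 lower (22.2% of all genes). INCENP, CDC25B, FOXM1, ESPL1 and MKI67 were higher by LIEA by 3.77, 2.46, 2.40, 2.36 and 2.06, and CDC25C by 1.02. BIRC5 was lower by LIEA by 1.70 on the log2 scale and PTTG1 by 1.69, followed by MAD2L1, TTK, UBE2C, KIF23 and CKAP2 between 1.32 and 1.01. For 25 of the 45 genes the difference between the methods was larger in size than that between the cell lines (55.6%), close to the 58.0% of all genes for which this was so. The median size was 0.67 between the methods and 0.57 between the cell lines, both below the 1.02 and 0.80 of all genes. All genes include sparsely read ones, so these shares and sizes are not matched for reads.

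As a description, the difference between the methods was related to length and base composition. Over the 45 genes, Spearman's rho of LIEA minus Smart-seq2 was 0.38 with transcript length and 0.44 with GC content, and over all genes listed in both it was 0.26 and 0.37. The 22 members longer than the median of 3636 nt had a median of 0.28 and the 23 others one of -0.35. The difference between the cell lines, within LIEA, had a rho of 0.04 with length and 0.06 with GC content over the same 45 genes. These correlations are across genes of the same libraries, which share depth and processing, and describe only these libraries. The order of the members' levels was kept better between the cell lines by LIEA, with a rho of 0.87, than between the methods in HBE, with a rho of 0.67, while over all genes it was 0.78 and 0.79.

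Set against Smart-seq2 of HBE in place of HBE by LIEA, A549 was lower for 32 of 45 genes (71.1%), where 50.2% of all 14272 genes were lower. At least 2-fold lower were 16 genes (35.6%), against 29.4% of all genes, and at least 2-fold higher were 6 (13.3%), against 32.7%. This comparison changes the method and the cell line at once and shares the A549 library with the comparison above, so the differences to both HBE libraries are given side by side and are not independent. A549 lay below both HBE libraries for 30 genes (66.7%), against 37.0% of all genes. It lay below both by at least 2-fold for 10 (22.2%), against 12.7% of all genes, and these members were CCNA2, CDC20, MAD2L1, TTK, CDCA8, CENPE, KIF2C, CKAP2, NCAPG and ANLN. Of the 13 genes at least 2-fold lower within LIEA, the other 3 were INCENP, FOXM1 and BUB1B. INCENP and FOXM1 were higher in A549 than in Smart-seq2 of HBE, and BUB1B was lower by 0.40 on the log2 scale. Of the 5 genes not lower within LIEA, CDC25B, KIF4A and PRC1 were above both HBE libraries, while KIF23 and ECT2 were below Smart-seq2. A549 lay below HBE by LIEA but not below Smart-seq2 for 10 members. These were INCENP, CENPF, KIF20A, TOP2A, CDC25C, ESPL1, NCAPD2, NCAPH, MKI67 and FOXM1. No share of all genes was worked out for this count.

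**Figure D4:**
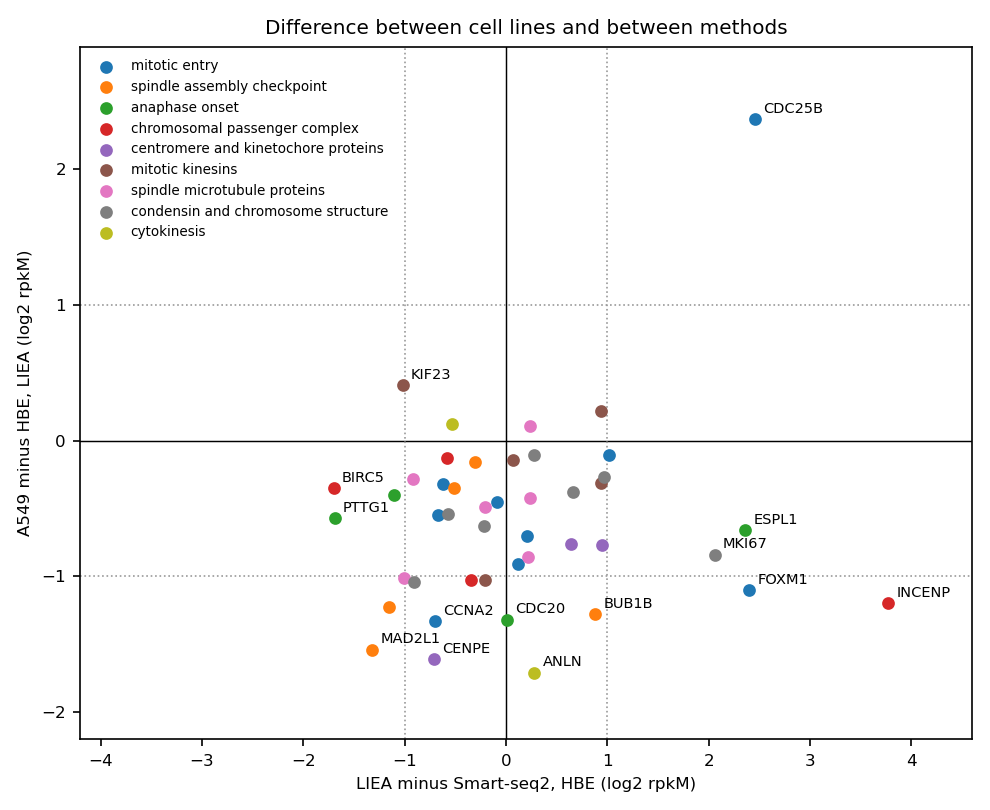
For each of the 45 genes, the log2 difference in rpkM between the cell lines by LIEA (A549 minus HBE, vertical axis) against that between the methods in HBE (LIEA minus Smart-seq2, horizontal axis), coloured by role, with dotted lines at a fold of 2. The axes share the LIEA library of HBE. ANLN and CDC20 lie far down and near the middle of the horizontal axis, at 0.28 and 0.01, whereas INCENP, FOXM1, MKI67 and ESPL1 lie far to the right.

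The promoters of these genes share sequence features that the choice of members did not use. Genes of G2 phase and mitosis often carry a cell cycle genes homology region, CHR, bound by the DREAM and MYBL2-MuvB complexes, and CCAAT boxes bound by NF-Y. RefSeq promoter windows on GRCh38.p14, from 250 bases before to 50 after a start site, were matched by symbol for 38 of the 45 genes, with 50 windows in all because 8 genes have several starts. AURKA, BUB3, TTK, BIRC5, TPX2, UBE2C and FOXM1 were not among them. The letters TTTGAA or TTTAAA, taken as a CHR and searched on both strands, were in 38 of the 50 windows (76.0%), against 24.0% of all 35116 windows. TTTAAA reads the same on both strands and was counted once. CCAAT on either strand was in 35 windows (70.0%), against 34.6% of all, and at least 2 matches in 20 (40.0%), against 10.8%. Both a CHR and a CCAAT match were in 29 windows (58.0%), against 9.27% of all. A CHR match lay within the 50 bases before the start in 20 windows (40.0%), against 4.39% of all, a limit chosen after the positions were seen. A match of letters is not a measured binding site. The 6 windows below run from 120 bases before to 50 after a start, read 5′ to 3′ on the gene's strand, with matches in capitals. They show the cyclin B genes, members at the low end of the difference (CDC20 and ANLN) and members that were not lower (KIF4A and CDC25B).
CCNB1, chr5:69167030-69167199, plus strand: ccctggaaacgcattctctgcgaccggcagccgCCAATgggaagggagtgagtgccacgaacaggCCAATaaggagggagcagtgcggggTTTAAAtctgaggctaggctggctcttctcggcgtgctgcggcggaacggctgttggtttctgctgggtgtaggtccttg
CCNB2, chr15:59105026-59105195, plus strand: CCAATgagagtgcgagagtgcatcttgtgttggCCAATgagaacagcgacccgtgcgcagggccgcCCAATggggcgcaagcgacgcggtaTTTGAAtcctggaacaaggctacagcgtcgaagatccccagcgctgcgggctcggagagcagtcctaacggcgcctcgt
CDC20, chr1:43358861-43359030, plus strand: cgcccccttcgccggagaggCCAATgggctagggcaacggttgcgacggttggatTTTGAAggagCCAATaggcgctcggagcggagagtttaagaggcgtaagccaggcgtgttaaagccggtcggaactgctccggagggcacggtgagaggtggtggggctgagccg
ANLN, chr7:36389742-36389911, plus strand: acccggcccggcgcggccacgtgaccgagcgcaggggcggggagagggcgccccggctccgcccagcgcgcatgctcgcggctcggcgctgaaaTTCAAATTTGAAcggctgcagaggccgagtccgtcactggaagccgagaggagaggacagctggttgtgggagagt
KIF4A, chrX:70289984-70290153, plus strand: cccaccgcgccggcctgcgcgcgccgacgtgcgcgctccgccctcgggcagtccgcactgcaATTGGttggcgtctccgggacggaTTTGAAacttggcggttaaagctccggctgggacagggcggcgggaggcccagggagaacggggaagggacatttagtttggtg
CDC25B, chr20:3796190-3796359, plus strand: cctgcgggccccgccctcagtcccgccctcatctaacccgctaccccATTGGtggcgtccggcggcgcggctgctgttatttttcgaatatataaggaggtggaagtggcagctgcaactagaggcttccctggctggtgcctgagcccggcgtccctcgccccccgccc

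In CCNB1, which was lower by 0.32 on the log2 scale, TTTAAA starts 30 bases before the start site and CCAAT matches lie at -87 and -55. CCNB2, lower by 0.45, has TTTGAA at -29 and 3 CCAAT matches in the stretch shown, at -120, -87 and -54. In the stretch shown, CDC20 has TTTGAA at -65 between CCAAT matches at -100 and -55. ANLN, the gene with the lowest difference, has TTTGAA on opposite strands side by side at -26 and -20 and no CCAAT match. KIF4A, which was higher by 0.22, also has a CCAAT match followed by a CHR match, with the former on the other strand at -58 and TTTGAA at -34. CDC25B has 4 start sites in the table, and the window shown, with a CCAAT match at -73, holds no CHR match. Its only CHR match is TTTAAA at position 33 after another start. By gene, 34 of 38 members had a CHR match in at least 1 window, a count that several windows per gene can raise. No share of all genes was worked out for it, and the shares above are per window. The median log2 difference of these 34 between the cell lines was -0.55. The other 4, CCNA2, AURKB, BUB1 and CKAP2, had a median of -0.68. Of 30 members with a CCAAT match 5 were at least 2-fold lower in A549, with a median of -0.40, and of the 8 without one 6 were, with a median of -1.04. The 8 were BUB1B, CENPE, KIF2C, CKAP2, SMC2, SMC4, NCAPG and ANLN. This contrast was noticed after the values were known and was not tested.

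Other genes of the same pathways, listed by their known roles, were mostly lower in A549 as well. Of 130 such genes with at least 10 reads in either LIEA library, 103 were lower, where 54.8% of all genes were. The median log2 difference of the 130 was -0.46. At least 2-fold higher were 4, against 20.4% of all genes. At least 2-fold lower were 26, a share near the 20.9% of all genes. The counts of the single lists below are to be read beside these shares of all genes. The 13 genes of cohesin, the ring that holds sister chromatids together, had the lowest median of the 6 lists within LIEA, -0.72. Of these, 12 were lower and 4 at least 2-fold. WAPL, which releases the ring, was at -1.65, the core subunit RAD21 at -1.26 and the loader NIPBL at -1.23. Against Smart-seq2 of HBE the cohesin median was -0.59 and RAD21 was at -0.06. There the lowest median of the 6 lists was -1.06, that of the other kinetochore and centromere genes. ESCO2, an acetyltransferase that locks the ring in S phase, was at 0.72. Of 36 other kinetochore and centromere genes 29 were lower, 9 of them at least 2-fold, with a median of -0.41. The lowest were MIS18A, which prepares centromeres for CENPA, at -2.36, NDC80, the microtubule-binding core of the kinetochore, at -2.09 and SKA3, its partner on the spindle, at -1.95. MIS18A, NDC80 and SKA3 were sparsely read, with 91, 85 and 124 reads in HBE by LIEA and 16, 18 and 29 in A549. HJURP, the chaperone that deposits CENPA, was at 1.34, with 289 reads in HBE by LIEA and 660 in A549, and NSL1 was at 1.33. The genes that load CENPA, MIS18A and HJURP, thus lay at opposite ends of this list while CENPA itself was at -0.76.

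Of 33 other spindle and cytokinesis genes 27 were lower and 3 at least 2-fold, with a median of -0.42. The 3 were KNSTRN at -1.53, KIF15 at -1.47 and HAUS8, a subunit of augmin, at -1.20. HAUS8 had only 28 reads in HBE by LIEA and 11 in A549, with an interval from -2.35 to -0.15. The highest of this list was STMN1 at 0.38. The anaphase-promoting complex and its activators, 18 genes, had a median of -0.33. In it ANAPC15 and ANAPC10 were at least 2-fold lower, at -1.29 and -1.15. ANAPC10 had only 37 reads in HBE by LIEA and 15 in A549, with an interval from -2.13 to -0.25. The RING subunit ANAPC11 was at least 2-fold higher by LIEA, at 1.35. Its levels were 5.37, 6.72 and 7.14, so A549 lay below Smart-seq2 of HBE for this gene. Of 8 other condensin and chromatin genes, the condensin II subunits NCAPD3 and NCAPG2 were at -1.37 and -1.28 and NCAPH2 at -0.72. Of 23 genes of entry control and of the DREAM or MYBL2 complex, 6 were at least 2-fold lower and 1 at least 2-fold higher, with a median of -0.49. CDC25A at -2.84 and TFDP1, the partner of E2F factors, at -1.54 were the lowest. They were followed by PKMYT1, an inhibitory kinase of CDK1, and by WEE1, CCNF and MASTL, all at -1.24. LIN37, a MuvB subunit, was at 2.16 on 25 reads in HBE and 101 in A549, and the CDK subunits CKS1B and CKS2 were both at 0.71. MYBL2, whose product works with FOXM1 on mitotic promoters, had a log2 rpkM of 5.94 in HBE by LIEA and 5.71 in A549, a difference of -0.24. CCNA1, the germline cyclin A, was listed only in Smart-seq2, with 3 reads.

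**Figure D5:**
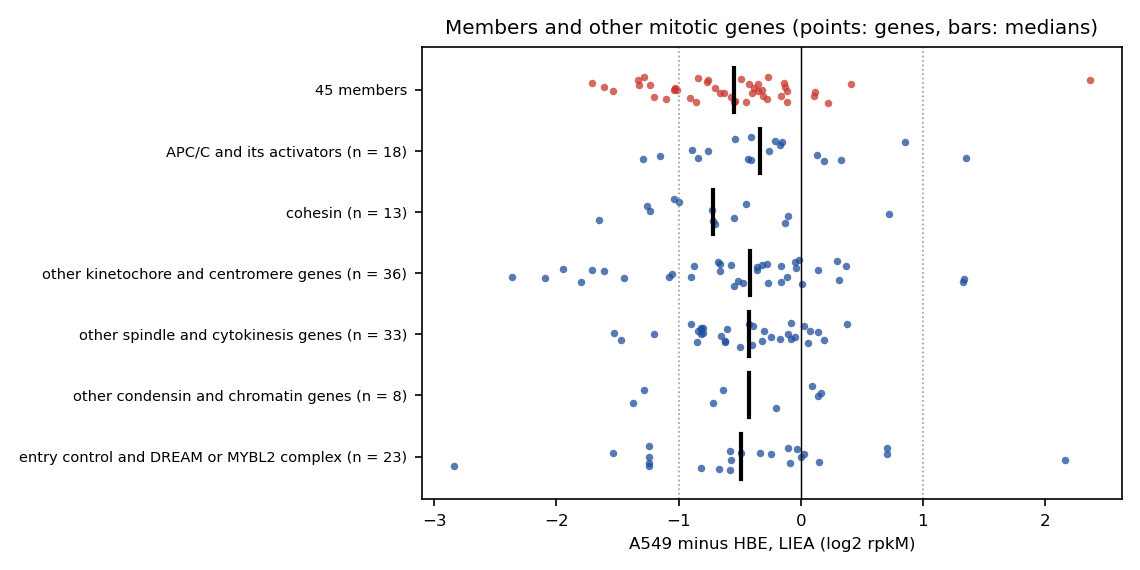
Log2 difference in rpkM, A549 minus HBE by LIEA (horizontal axis), of the 45 members and of the genes with at least 10 reads in either library in 6 further lists. Points are genes, spread vertically only for sight, black bars are medians and dotted lines mark a fold of 2. All 7 medians lie below 0, from -0.72 for cohesin to -0.33 for the anaphase-promoting complex, and the members' median is -0.55.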

How the data were processed

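mRNA of HBE and A549 was sequenced with Ion Torrent LIEA, and mRNA of HBE also with Smart-seq2. The authors mapped the reads to RefSeq-RNA with FANSe2, merged splice variants and deposited log2 rpkM per gene, without a pseudocount. The labels name hg19 as the genome build. Library totals, transcript lengths and read numbers were recovered from these values. All 18836 genes (100%) gave whole reads within the rounding of the deposited decimals. Reads and length share a whole factor, chosen by annotated lengths, which was above 1 for 1538 genes. The recovery was also run on data simulated from the recovered lengths and reads, which can check its arithmetic only and not the chosen factors. Genes with at least 10 reads in 1 of the libraries compared were counted, a gene not listed in the other being set to 3 reads. Counting intervals are exact Clopper-Pearson intervals of the share of a gene's reads. With 1 library per condition no test was made. The members, roles and lists were chosen with earlier results of these data known. Full values were given by rule for the members with the highest and lowest difference and most reads in each role. The rule also took members at least 2-fold apart between the cell lines and the 5 furthest apart between the methods. Genes of the other lists were named from the 3 highest and 3 lowest and genes tied with these, with MYBL2 shown for context. Alternatives were log2(rpkM + 1), centring, TPM, other read limits and folds, Smart-seq2 as reference and the smallest whole reads. Python 3.11.15, numpy 2.4.6, pandas 2.3.3, scipy 1.17.1 and matplotlib 3.10.9 were used. GC content came from GENCODE transcripts on GRCh37. Rows with gene names turned into dates, 23, 24 and 23 per library, were dropped, and bulk mRNA-seq was not analysed here.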

Additional observations from a re-analysis of the deposited data

How the results depend on the processing

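No paired analysis was possible because the groups hold 1 library each, and so no library could be left out. Of 40 values under an alternative, 35 stayed within the limits set for them, but many of these could not move. Every member had at least 55 reads in HBE by LIEA, 46 in A549 and 58 in Smart-seq2, and an rpkM above 1. The other read limits and the smallest whole reads therefore returned the main values by construction, so this count is not a measure of robustness. The median log2 difference of the 45 genes between the cell lines, -0.55, ranged from -0.71 as TPM to -0.39 after centring, and with Smart-seq2 as the reference of HBE it was -0.63. The 13 genes at least 2-fold lower in A549 became 8 after centring on genes with at least 100 reads in both LIEA libraries, where CDCA8, KIF2C, CKAP2, NCAPG and FOXM1 were no longer counted. They became 9 with log2(rpkM + 1), 21 with a fold of 1.5 and 35 where the counting interval had to lie wholly below equality. The gene at least 2-fold higher, 1, became 6 with Smart-seq2 as the reference and 2 where the counting interval had to lie wholly above equality. The cause was not tested. Depth limits the least covered members, CDC25C, TTK and CENPE, each with under 50 reads in A549.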
